A study of Mus musculus with 25 samples.

Results

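The genes described here are 9 chemokine receptors of leukocytes, Ccr1, Ccr2, Ccr3, Ccr7, Cxcr2, Cxcr3, Cxcr6, Cx3cr1 and Xcr1, taken by symbol out of the 24984 genes of the count table. The choice rests on the names of the genes and not on a cut in their values. Earlier results of these data were known when it was made. Their levels were followed in the 25 libraries of the series, and the stroma of the liver tumour was compared with the stroma of the peritoneal tumour of the same mouse.

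Chemokine receptors are membrane proteins that couple to inhibitory G proteins and steer leukocytes along gradients of small secreted chemokines. Each leukocyte type carries its own combination, so that inflammatory monocytes follow Ccl2 through Ccr2, neutrophils follow Cxcl1 and its relatives through Cxcr2, and cross-presenting dendritic cells carry Xcr1. In the liver and the peritoneal cavity these receptors are best known for bringing blood-borne cells into tissues that already hold resident macrophages.

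All libraries were mouse mRNA. BMEL cells are bipotent liver progenitors, a clonal line isolated from the embryonic liver of a C57B/6_C3H mouse, and 3 cultures each were sequenced of cells with an empty vector (BMEL WT) and of populations sorted for low (RasLOW) or high (RasHIGH) levels of H-RasG12V, which is expressed together with a fluorescent protein. The other 16 libraries came from 4 athymic nude mice (Crl:NU(NCr)-Foxn1nu) that carried a tumour of H-RasG12V BMEL cells in the liver and a further tumour in the peritoneum. Each of these tumours was dissociated and sorted into fluorescent tumour cells and non-fluorescent stromal cells, which gave 4 groups of 4 libraries with the mouse as the replicate. The stromal gate keeps every cell without the fluorescent protein, so it mixes leukocytes with fibroblasts and endothelial cells. The hosts, having no thymus, lack most T cells and keep natural killer (NK) cells, B cells and myeloid cells, and the age of the mice is not given in the sources used here. In such mixed libraries fewer cells of a type and less RNA per cell cannot be told apart.

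Total counts ran from 20818989 to 51241336 per library, so that 3 counts, the smallest number taken here as a signal, stood for 0.0585 to 0.144 CPM, the count scaled to the total of its library. That floor covers counting error only. The 10 pan-leukocyte genes fixed as a list (Ptprc, which encodes CD45, Laptm5, Itgb2 and others) summed to 4937 to 5430 CPM in liver stroma and to 3009 to 3485 CPM in peritoneal stroma, and 9 of the 10 were called higher in liver stroma, with a median log2 fold change of 0.55. The 5 fibroblast markers moved the other way, from 2789 to 5806 CPM in the liver to 39850 to 57460 CPM in the peritoneum. Kupffer cell markers summed to 198 to 567 CPM in liver stroma, and Clec4f, which defines these resident liver macrophages, was at 0 counts in all 4 peritoneal libraries. The peritoneal stroma of mouse 1 stood apart, with 2817 CPM of neutrophil markers against 445 to 485 CPM in the other 3 peritoneal libraries. In the liver, the stroma of mouse 1 stood apart for Ccr3. The stroma also held markers of BMEL and epithelial cells, and 3 of the 4 listed were called higher in liver stroma. They summed to 752 to 946 CPM in liver stroma and 399 to 654 CPM in peritoneal stroma. In tumour cells they summed to 5105 to 6573 CPM in the liver and 6348 to 8203 CPM in the peritoneum.

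Reads of related receptors can be hard to assign. Words of 50 bases were searched in the protein-coding GENCODE transcripts of the mm9 genome, on the sense strand. Those that also occur in another gene's transcript made up 1.75% of the Ccr2 words, 1.91% of the Cxcr2 words and 1.18% of the Xcr1 words. They made up 0 of the words of the other 6 receptors. How the counting treated such reads is not given in the sources used here, so the effect on the counts of these 3 genes is not known. Pseudogenes, other non-coding transcripts and the opposite strand were not searched, so a share of 0 does not exclude shared reads. No exon of the 9 receptors overlapped an exon of another gene on either strand.

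Of the 9 genes, 5 lie within 313 kb of chromosome 9 (mm9), in the order Cxcr6 (Entrez Gene 80901, chr9:123715595-123720872, plus strand), Xcr1 (Entrez Gene 23832, chr9:123761436-123771246, minus), Ccr1 (Entrez Gene 12768, chr9:123876959-123883525, minus), Ccr3 (Entrez Gene 12771, chr9:123936703-123946421, plus) and Ccr2 (Entrez Gene 12772, chr9:124016689-124028296, plus). Cx3cr1 (Entrez Gene 13051) lies on the same chromosome at chr9:119957811-119977400 on the minus strand. The other genes were Ccr7 (Entrez Gene 12775) at chr11:99005510-99016391 (minus), Cxcr2 (12765) at chr1:74200563-74207812 (plus) and Cxcr3 (12766) at chrX:98926874-98929608 (minus). Levels given below are per gene, and which exons the counts cover is not given in the sources used here.

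Promoters of 8 of the 9 receptors were at hand from RefSeq (GRCm38.p6), each running from 250 bases before to 50 bases after the start. Those of Cxcr2 and Cx3cr1 are shown because these receptors moved in opposite directions between the sites, and capitals mark GAGGAA, the purine-rich core bound by the myeloid factor PU.1 and other Ets proteins, searched on both strands (TTCCTC on the strand shown).
Cxcr2, chr1:74153744-74154043, plus strand: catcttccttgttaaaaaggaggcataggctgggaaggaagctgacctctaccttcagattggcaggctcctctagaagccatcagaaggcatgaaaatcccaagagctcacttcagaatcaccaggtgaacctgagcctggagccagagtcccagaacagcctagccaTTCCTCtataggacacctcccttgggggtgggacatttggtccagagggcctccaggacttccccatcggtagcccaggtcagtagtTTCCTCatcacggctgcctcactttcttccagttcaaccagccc
Cx3cr1, chr9:120068247-120068546, minus strand: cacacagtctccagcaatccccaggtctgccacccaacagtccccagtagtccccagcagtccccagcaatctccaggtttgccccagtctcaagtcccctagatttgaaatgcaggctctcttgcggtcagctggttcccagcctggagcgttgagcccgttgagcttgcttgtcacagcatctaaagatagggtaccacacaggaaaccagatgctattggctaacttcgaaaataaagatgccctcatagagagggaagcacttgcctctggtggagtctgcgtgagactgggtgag
The letters GAGGAA occurred in 4 of the 8 promoters (Cxcr2, Ccr1, Ccr3 and Cxcr3) and in 28.3% of 32851 mouse promoters of the same length, and their absence from the Cx3cr1 window says only that these letters are not there.

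In RPKM, which is CPM per kilobase of exon, Ccr1, a receptor of monocytes, macrophages and neutrophils, had the highest level of the 9 in the stroma of each site. In liver stroma it stood at 97.6 ± 5.02 RPKM (SD, n = 4), followed by Ccr2 at 65.0 ± 12 RPKM and Cxcr2 at 44.5 ± 8.36 RPKM. The ranges of Ccr2 (48.8 to 75.3 RPKM) and Cxcr2 (34.7 to 54.5 RPKM) overlapped, whereas the lowest Ccr1 value, 90.8 RPKM, lay above both. Ccr7 (17.7 ± 6.04 RPKM), Cx3cr1 (16.02 ± 1.70 RPKM) and Ccr3 (7.81 ± 7.28 RPKM) came next with overlapping ranges. Xcr1 (4.89 ± 0.854 RPKM) overlapped Ccr3 and lay above Cxcr3 (1.37 ± 0.490 RPKM), which lay above Cxcr6 (0.474 ± 0.173 RPKM). In peritoneal stroma the order was the same except that Cx3cr1 (27.5 ± 6.47 RPKM) took the place after Ccr2, with a range that overlapped that of Cxcr2 (23.7 ± 4.63 RPKM). There Ccr1 (58.1 to 77.8 RPKM) and Ccr2 (40.8 to 60.8 RPKM) overlapped, as did Ccr3 with Xcr1 and Cxcr3 with Cxcr6. The exons of Ccr2 add up to 6393 bases, against 2831 bases for Ccr1, which lowers its RPKM relative to its CPM. In CPM the order of these 2 was the reverse. Ccr2 had a mean of 416 CPM against 276 CPM for Ccr1 in the liver, and 317 against 191 CPM in the peritoneum. The exons that the counts cover are not given in the sources used here, so the lead of Ccr1 rests on these lengths.

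Between the sites, 4 of the 9 receptors were called higher in liver stroma (Ccr1, Ccr7, Cxcr2 and Xcr1), 1 was called higher in peritoneal stroma (Cx3cr1) and 4 were not called (Ccr2, Ccr3, Cxcr3 and Cxcr6). A gene was called at an adjusted p under 0.05 in edgeR's quasi-likelihood test with mouse as a block. All 9 passed the filter on low counts. Of the 14755 genes tested, 38.1% were called, 18.1% higher in the liver and 20% higher in the peritoneum. The median log2 fold change (liver minus peritoneum) was 0.75 for the receptors and 0.02 for all genes tested. The CPM of liver and peritoneal stroma did not overlap for the same 5 receptors, as for 38.3% of all genes tested.

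**Figure D1:**
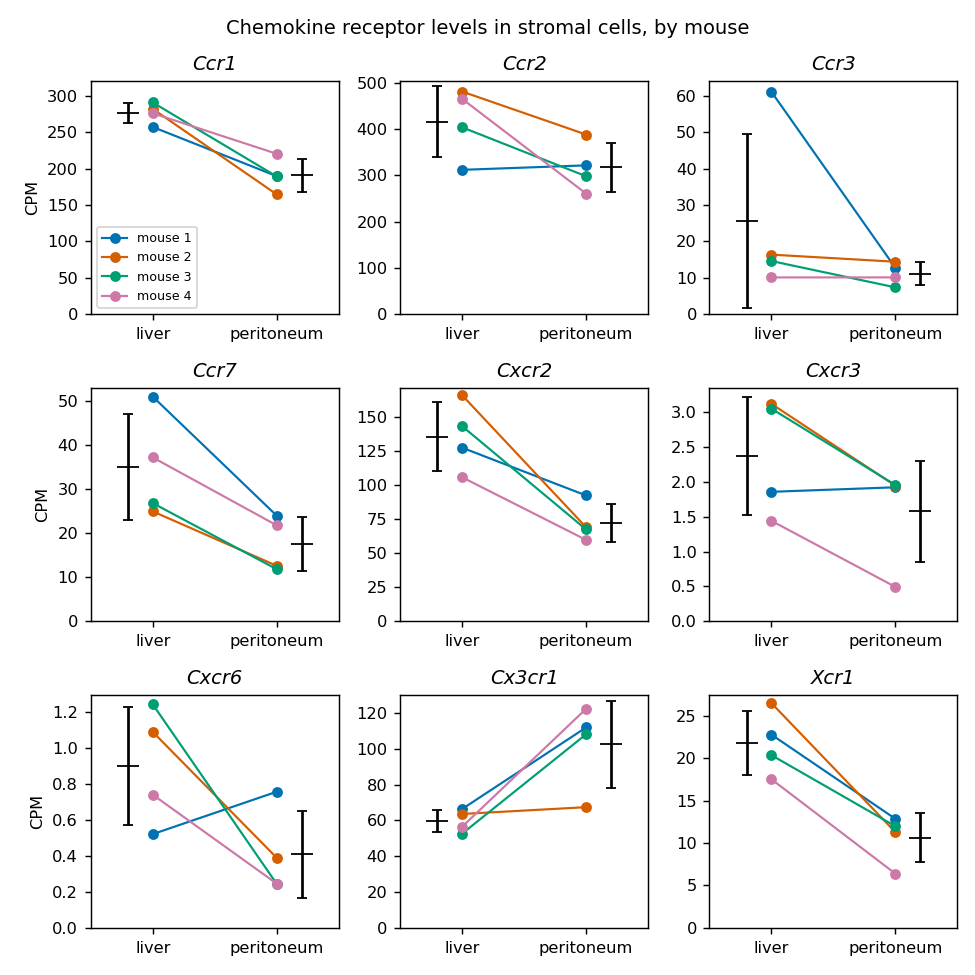
Level of each receptor (CPM, linear axis from 0) in liver and peritoneal stroma, with a line joining the libraries of a mouse and a black bar for the mean ± SD of 4 mice. All 4 lines fall from liver to peritoneum for Ccr1, Ccr7, Cxcr2 and Xcr1, and all 4 rise for Cx3cr1. Ccr3 in the liver is set by mouse 1, at 61.1 CPM.

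Among the receptors of monocytes and macrophages, Ccr1 read 257, 282, 291 and 276 CPM in the liver stroma of mice 1 to 4 and 189.5, 164.5, 189 and 220.2 CPM in their peritoneal stroma. Every liver value lay above every peritoneal value, with a within-mouse ratio between 1.25 and 1.71. The log2 fold change of Ccr1 was 0.42 ± 0.08 (SE; edgeR quasi-likelihood test, Benjamini-Hochberg adjusted p = 0.00836). Ccr2, which lets inflammatory monocytes leave the marrow and enter tissue, read 312, 481, 404 and 465.5 CPM in the liver against 322, 388, 298 and 261 CPM in the peritoneum. These ranges overlapped, and the liver was higher in 3 of 4 mice. Ccr2 had a log2 fold change of 0.27 ± 0.14 (adjusted p = 0.171 in the edgeR test).

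Cx3cr1, the fractalkine receptor of patrolling monocytes and of many tissue macrophages, went the other way. It read 66.3, 63.6, 52.6 and 56.5 CPM in the liver against 112, 67.4, 108 and 122 CPM in the peritoneum. The peritoneum was higher in all 4 mice, although in mouse 2 the liver still reached 0.944 of the peritoneal level. The fall of Cx3cr1 in the liver was 0.87 ± 0.16 on the log2 scale, a fold of 1.82 (edgeR quasi-likelihood test, adjusted p = 0.00810). Fitting all 16 sorted libraries together ended the calls of Ccr1 (SE 0.33, adjusted p = 0.259) and Cx3cr1 (SE 0.35, adjusted p = 0.0843) in the edgeR test.

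The marker lists of these cells did not move as a block. Of 6 monocyte markers, Plac8 and Ms4a4c were called higher in the liver and F13a1 and Vcan higher in the peritoneum. The list summed to 600 to 663 CPM in the liver against 857 to 1451 CPM in the peritoneum. That sum does not measure monocytes alone, since it was also 486 to 585 CPM in liver tumour cells and 110.5 to 148 CPM in BMEL WT. Of 5 patrolling monocyte markers, Itgal and Treml4 were called higher in the liver and Nr4a1 and Ace higher in the peritoneum (sums of 1570 to 2509 and 1919 to 2633 CPM). Macrophage markers summed to 2743 to 3000 and 1699 to 2778 CPM, with Csf1r and Fcgr1 of 6 called higher in the liver. The part of these cell types in the receptor differences was not tested.

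Of the granulocyte receptors, Cxcr2, the neutrophil receptor for Cxcl1 and its relatives, read 127, 166, 143 and 105.5 CPM in the liver and 92.2, 68.8, 67.2 and 59.6 CPM in the peritoneum. No peritoneal value reached a liver value. The log2 fold change of Cxcr2 was 0.80 ± 0.12 (edgeR quasi-likelihood test, adjusted p = 0.00362). Among 6 neutrophil markers only Csf3r, the receptor for granulocyte colony stimulating factor, was called, with a log2 fold change of 1.06 ± 0.08 (adjusted p = 1.918e-04 in that test). The granule and alarmin genes were uneven: S100a8 read 186 to 338 CPM in the liver, 1011 CPM in the peritoneal library of mouse 1 and 52.3 to 58.1 CPM in the other 3. That library also had the highest peritoneal Cxcr2, and without mouse 1 the log2 fold change of Cxcr2 was 0.91 ± 0.09 (adjusted p = 5.637e-04).

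Ccr3, the eotaxin receptor of eosinophils, read 61.1, 16.4, 14.6 and 10.1 CPM in the liver and 12.7, 14.4, 7.40 and 10.1 CPM in the peritoneum. The liver library of mouse 1 was high and the remaining ranges overlapped. For Ccr3 the fitted log2 fold change was 0.75 ± 0.38 (adjusted p = 0.176 in the edgeR test) and 0.24 ± 0.20 without mouse 1 (adjusted p = 0.410). Eosinophil markers in that liver library were mixed. Siglecf read 78.9 CPM against 39.7 to 53.4 CPM in the other liver libraries, and Il5ra 25.5 against 14.6 to 19.4 CPM. The granule genes Epx and Prg2 read 1.29 and 2.45 CPM there, the lowest of the 4 liver libraries. They were highest in the peritoneal library of mouse 1, at 27.8 and 94.7 CPM, where Ccr3 was 12.7 CPM.

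Of the dendritic cell receptors, Ccr7 guides maturing dendritic cells and naive lymphocytes to lymph nodes. It read 50.9, 24.9, 26.8 and 37.1 CPM in the liver and 23.9, 12.5, 11.8 and 21.7 CPM in the peritoneum. Levels varied among mice at each site, but within a mouse the ratio stayed between 1.71 and 2.27. The log2 fold change of Ccr7 was 0.89 ± 0.09 (edgeR quasi-likelihood test, adjusted p = 0.0007515), and without the block it had an SE of 0.29 and an adjusted p of 0.0411. The 5 markers of mature dendritic cells split, with Ccl22 and Cd83 called higher in the liver and Fscn1 and Cacnb3 called higher in the peritoneum. They summed to 593 to 780 and 598 to 675 CPM. That sum does not measure these cells alone, since it was also 341 to 427 CPM in liver tumour cells and 227.5 to 254 CPM in BMEL WT.

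Xcr1, the receptor for Xcl1 on type 1 conventional dendritic cells, read 22.8, 26.5, 20.4 and 17.5 CPM in the liver and 12.8, 11.3, 11.98 and 6.39 CPM in the peritoneum. All liver values lay above all peritoneal values. Xcr1 had a log2 fold change of 0.95 ± 0.14 (edgeR quasi-likelihood test, adjusted p = 0.00285). Of 6 markers of the same cells, 5 were called higher in the liver (Clec9a, Itgae, Batf3, Irf8 and Wdfy4) and Tlr3 was not, with sums of 676 to 728 CPM in the liver and 341 to 416 CPM in the peritoneum. The median log2 fold change of these 6 was 0.90, against 0.23 for 5 markers of type 2 conventional dendritic cells.

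The lymphocyte receptors were scarce. Cxcr3, found on activated T cells and NK cells, read 1.86, 3.12, 3.05 and 1.44 CPM in the liver and 1.92, 1.95, 1.96 and 0.491 CPM in the peritoneum. Cxcr3 had a log2 fold change of 0.54 ± 0.29 (adjusted p = 0.192 in the edgeR test), and the liver was higher in 3 of 4 mice. Cxcr6, a receptor of liver-homing lymphocytes and innate lymphoid cells, read 0.520, 1.09, 1.24 and 0.739 CPM in the liver and 0.756, 0.389, 0.244 and 0.246 CPM in the peritoneum, on 20 to 39 and 7 to 22 counts. Cxcr6 had a log2 fold change of 1.04 ± 0.52 (adjusted p = 0.166 in the edgeR test), and it was called without mouse 1, the only mouse with more in the peritoneum (1.65 ± 0.41, adjusted p = 0.0236).

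Lymphocyte markers beside these receptors differed in direction. NK cell markers summed to 28.7 to 49.2 CPM in the liver and 8.10 to 14.6 CPM in the peritoneum, with 4 of 5 called higher in the liver. B cell markers, at 24.1 to 43.9 and 2.38 to 11.0 CPM, had 5 of 5 called higher in the liver. Of 5 T cell markers tested, Cd8a was called higher in the liver and Cd3e higher in the peritoneum. Innate lymphoid cell markers summed to 73.1 to 92.6 CPM in the liver and 266 to 370 CPM in the peritoneum, where Il1rl1 and Thy1, which other cells also carry, were called higher, while Il7r was called higher in the liver. Their part in the receptor levels was not tested.

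When libraries were scaled to the 10 pan-leukocyte genes in place of all genes, 3 of the 9 receptors were called. Cx3cr1 remained lower in the liver, by 1.41 ± 0.18 on the log2 scale (edgeR quasi-likelihood test, adjusted p = 4.727e-04). Ccr7 (0.35 ± 0.11, adjusted p = 0.0233) and Xcr1 (0.40 ± 0.15, adjusted p = 0.0461) remained higher in the liver. Ccr1 (-0.12 ± 0.10), Ccr2 (-0.28 ± 0.13) and Cxcr3 (-0.01 ± 0.30) changed sign and Cxcr2 kept its sign at 0.25 ± 0.11, with none of these 4 called (adjusted p from 0.0766 to 0.983 in that test). Ccr3 (0.19 ± 0.38) and Cxcr6 (0.50 ± 0.49) were not called under either scaling. Under this scaling 68.3% of all genes were called, only 4.35% of them higher in the liver against 47.5% under the scaling of whole libraries, and the median of all genes moved to -0.53. Relative to that median Ccr1 stood at 0.40, Cxcr2 at 0.77, Xcr1 at 0.93 and Cx3cr1 at -0.89. Taking off the median undoes the rescaling. By construction these values therefore repeat those under the scaling of whole libraries and are no separate test.

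**Figure D2:**
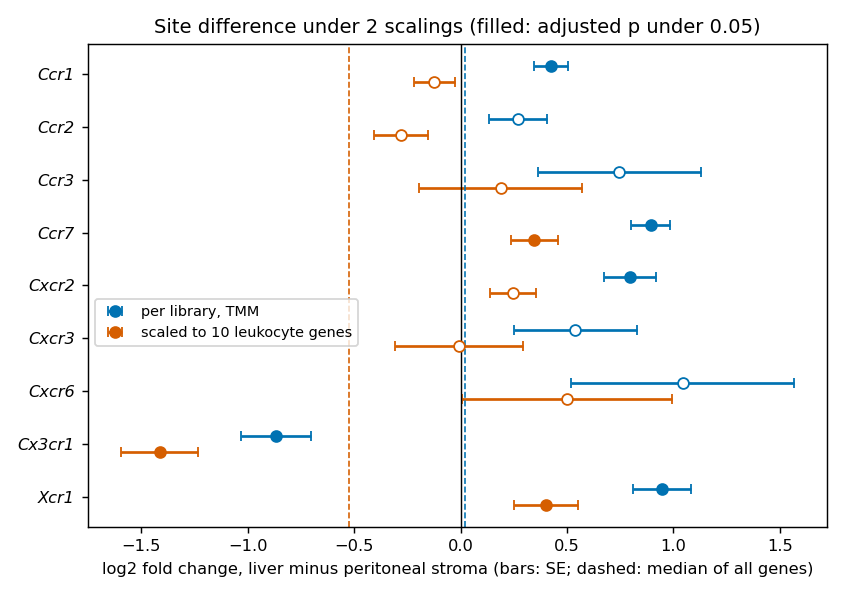
Log2 fold change of each receptor, liver minus peritoneal stroma, with SE bars, under TMM scaling of whole libraries (blue) and under scaling to 10 leukocyte genes (orange). Filled points passed an adjusted p of 0.05 and dashed lines mark the median of all genes (0.02 and -0.53). Cx3cr1, Ccr7 and Xcr1 are filled under each scaling.

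The ligands of these receptors did not follow a common direction. Of 24 ligand genes, 22 were tested, 6 were called higher in liver stroma and 9 higher in peritoneal stroma, with a median log2 fold change of 0.004. Among all genes tested the shares called were 18.1% and 20%. The 4 genes listed here as ligands of Ccr2 were all called higher in the peritoneum, while Ccr2 itself was not called. Whether each of them acts on the mouse receptor was not checked, Ccl8 in particular. Ccl2 read 37.9 ± 11.9 CPM in the liver and 257 ± 13.7 CPM in the peritoneum (SD, n = 4). Its log2 fold change was -2.93 ± 0.19 (edgeR quasi-likelihood test, adjusted p = 1.232e-04). Ccl7 followed with -3.61 ± 0.11, Ccl8 with -2.98 ± 0.55 and Ccl12 with -1.34 ± 0.32. The call of Ccl12 was lost without mouse 4 (adjusted p = 0.0789 in the edgeR test) and in the fit of all 16 sorted libraries (0.0862).

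The neutrophil attractants Cxcl1 and Cxcl5, ligands of Cxcr2, were also called higher in the peritoneum, against the direction of their receptor. Cxcl1 read 189 ± 42.3 CPM in the liver and 576 ± 47.2 CPM in the peritoneum (SD, n = 4). The log2 fold change was -1.74 ± 0.11 for Cxcl1 and -3.65 ± 0.20 for Cxcl5 (adjusted p = 1.090e-04 and 6.532e-05 in the edgeR test). Cxcl2, at 959 ± 57.3 and 825 ± 135 CPM, was not called, nor were Cxcl3 and Ppbp.

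The 2 eotaxin genes split. Ccl11 read 2.29 ± 2.27 CPM in the liver and 27.0 ± 2.48 CPM in the peritoneum, whereas Ccl24, a macrophage eotaxin, read 566 ± 128 and 193 ± 76.0 CPM (SD, n = 4). Their log2 fold changes were -4.07 ± 0.65 and 1.48 ± 0.28 (adjusted p = 0.00434 and 0.00744 in the edgeR test). The highest Ccl24 value, 752 CPM, was in the liver library of mouse 1 that had the highest Ccr3.

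For Cx3cr1 and Xcr1 the single ligand and its receptor were called in the same direction. Cx3cl1 was higher in the peritoneum by 1.05 ± 0.19 on the log2 scale (15.0 ± 2.20 against 28.9 ± 6.17 CPM) and Xcl1 was higher in the liver by 1.70 ± 0.46 (3.47 ± 0.480 against 1.15 ± 0.908 CPM). The adjusted p was 0.00700 for Cx3cl1 and 0.0284 for Xcl1 in the edgeR test, and the call of Xcl1 was lost without mouse 2, 3 or 4 in turn (adjusted p from 0.0830 to 0.102). Tumour cells held more Cx3cl1 than stroma, at 92.2 ± 12.2 CPM in the liver and 108 ± 13.4 CPM in the peritoneum, and RasHIGH cultures 89.9 ± 24.3 CPM against 31.6 ± 10.5 CPM in BMEL WT (SD, n = 4 and 3, no test run). Since the stroma also held BMEL and epithelial markers, its Cx3cl1 need not come from stromal cells alone. The part of tumour cells in it was not tested.

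Of the ligands listed here under Ccr1, Ccl3 (0.70 ± 0.18) and Ccl5 (2.03 ± 0.54) were called higher in the liver and Ccl9 (-0.86 ± 0.17) higher in the peritoneum. Ccl4 (0.55 ± 0.19) and Ccl6 (-0.18 ± 0.13) were not called (adjusted p = 0.0643 and 0.341 in the edgeR test). Ligands given above under another receptor, such as Ccl7, are not repeated here, so this is no full tally for Ccr1. Fitting all 16 sorted libraries ended the calls of Ccl9 (adjusted p = 0.216) and Ccl3 (0.148), and leukocyte scaling that of Ccl3 (0.423). The calls of Ccl3 and Ccl5 were lost when mouse 2 or 3 was left out, and that of Ccl5 also without mouse 4, with adjusted p up to 0.0916 and 0.0965 in the edgeR test. The interferon-induced Cxcr3 ligands Cxcl9 (1.16 ± 0.33) and Cxcl11 (1.43 ± 0.35) were called higher in the liver at mean levels of 8.19 and 1.98 CPM there, and lost that call without mouse 2 or 3 and, for Cxcl9, also without mouse 4 (highest adjusted p 0.129 and 0.0739). Cxcl9 was also not called without the block (adjusted p = 0.1075 in the edgeR test) or under leukocyte scaling (0.1045). Cxcl10, the other ligand of Cxcr3, read 39.1 ± 5.25 and 28.1 ± 11.5 CPM (SD, n = 4) and was not called (0.48 ± 0.21, adjusted p = 0.130). Cxcl16, the ligand of Cxcr6, read 275 ± 35.2 and 224 ± 57.0 CPM (SD, n = 4) and was not called. The Ccr7 ligands Ccl19 and Ccl21a were at 0 counts in all 8 stromal libraries. Sequence shared with other genes was not searched for the ligands, and how shared reads were counted is not given. These counts therefore do not show that the 2 ligands are not expressed.

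**Figure D3:**
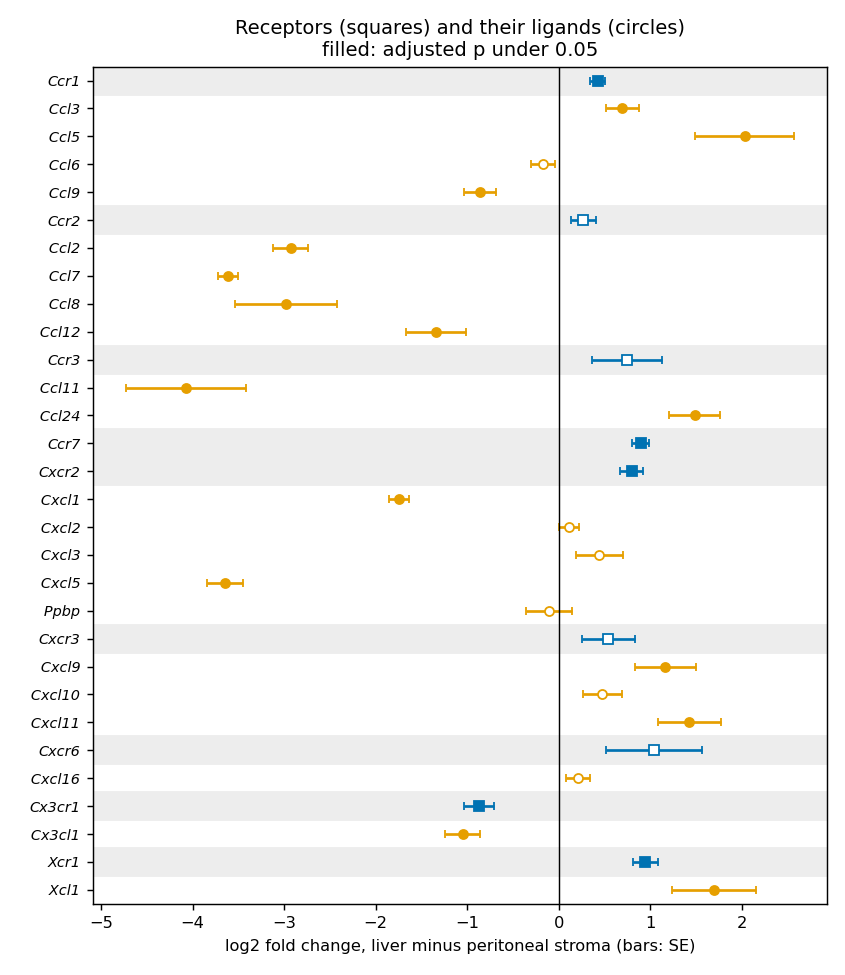
Log2 fold change, liver minus peritoneal stroma, of each receptor (blue squares, grey bands) and of its ligands (orange circles below it), with SE bars and filled points at an adjusted p under 0.05. The genes listed as Ccr2 ligands lie between -3.61 and -1.34 beside a receptor at 0.27, and Cx3cr1 and Xcr1 lie on the same side of 0 as their ligand.

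Other chemokine receptors were called in each direction. Of 15 genes, 11 were tested and 4 were called higher in the liver: Cxcr5, the B cell follicle receptor (2.42 ± 0.36 on the log2 scale), Ccr9 (1.49 ± 0.28), Cxcr4 (0.60 ± 0.12) and Ccrl2 (0.57 ± 0.12). Higher in the peritoneum were 2 atypical receptors that take up chemokine without G protein signalling, Ackr3 (-1.75 ± 0.11) and Ackr4 (-2.74 ± 0.81). For all genes tested the shares called were 18.1% higher in the liver and 20% higher in the peritoneum. Leaving out a mouse ended the call of Ccrl2 (mouse 2, adjusted p = 0.0506 in the edgeR test) and of Ackr4 (mouse 1, 3 or 4, 0.0893 to 0.1498). Without the block Ccr9 and Cxcr4 were not called (adjusted p = 0.124 and 0.226), nor were Cxcr4 and Ccrl2 in the fit of all 16 sorted libraries (0.246 and 0.433) or under leukocyte scaling (0.714 and 0.877).

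Downstream of the receptors, 12 of 16 genes for G protein signalling and desensitisation were called higher in the liver and 0 higher in the peritoneum, with a median log2 fold change of 0.40. Of all genes tested, 18.1% were called higher in the liver and 20% higher in the peritoneum. They included the arrestins Arrb1 (0.74 ± 0.06) and Arrb2 (0.39 ± 0.08), the receptor kinase Grk2 (0.56 ± 0.07), the gamma isoform of phosphoinositide 3-kinase, Pik3cg (0.49 ± 0.07), and Rac2 (0.55 ± 0.07) and Dock2 (0.49 ± 0.10), which drive leukocyte migration. The 4 genes not called were Gnai2 (0.16 ± 0.07), Gnai3 (-0.06 ± 0.07), Gnb1 (-0.05 ± 0.07) and Rgs18 (-0.37 ± 0.20). Genes expressed in BMEL WT fell on both sides of the call. There Gnai3 and Gnb1 read 179.5 and 322 CPM, and the called Grk2 and Grk6 109.5 and 68.4 CPM. The median of the pan-leukocyte list was 0.55, and the part of leukocyte content in the signalling list was not tested. Under leukocyte scaling none of these 12 genes was called higher in the liver: Arrb1 (0.19), Rgs1 (0.14) and Grk2 (0.02) kept their sign, the other 9 lay between -0.28 and -0.00125, and Elmo1 and Grk6 were called higher in the peritoneum (adjusted p = 0.0281 and 0.0311 in the edgeR test). In the fit of all 16 sorted libraries Rac2, Dock2, Pik3cg, Pik3r5, Gng2, Elmo1, Rgs1 and Rgs2 were not called (adjusted p from 0.162 to 0.407), and Grk6 was not called with RLE scaling or without the filter (0.0527 and 0.0724).

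**Figure D4:**
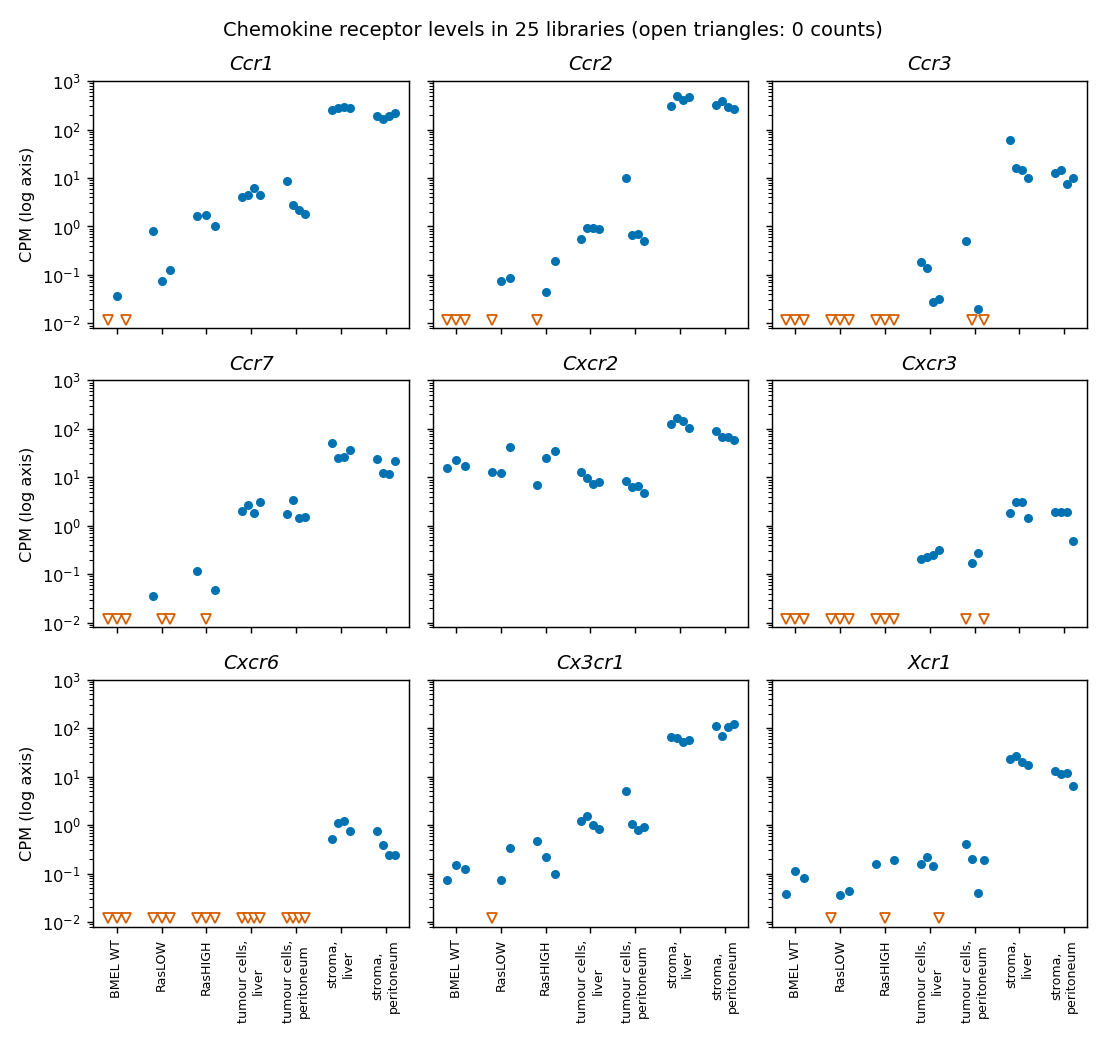
Level of each receptor (CPM, log axis) in every library of the 7 groups, with open triangles at the foot for libraries with 0 counts. In each panel the 8 stromal libraries lie above the other 17. Cxcr2 lies between 6.82 and 42.2 CPM in the 9 cultures, and the peritoneal tumour cells of mouse 1 stand above the other tumour libraries for Ccr1, Ccr2, Ccr3 and Cx3cr1.

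The sort placed the receptors in the stromal fraction. In the liver all 9 were called higher in stroma than in tumour cells of the same tumours, where 40.5% of 14620 genes tested were called higher. In the peritoneum 8 of the 8 tested were called higher, against 37% of 14584 genes. Ccr3, Cxcr3, Cxcr6 and Xcr1, at 0 to 10 counts per liver tumour cell library, passed the filter on low counts through the stroma. So did Ccr3, Cxcr3 and Xcr1 in the peritoneum, at 0 to 16 counts. A gene that passes this way can hardly be called lower in stroma, so these calls add little to the levels themselves. Ccr2 read 312 to 481 CPM in liver stroma and 0.552 to 0.929 CPM in liver tumour cells, a fold of 533 (edgeR quasi-likelihood test, adjusted p = 4.228e-10). Ccr1 was 61.1-fold, Cx3cr1 54.9-fold, Xcr1 166-fold and Ccr3 274-fold higher in liver stroma. The smallest liver folds were those of Cxcr2 (15.3), Ccr7 (15.1) and Cxcr3 (9.52).

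Cxcr6 was at 0 counts in all 8 tumour cell libraries, which allows up to 3 counts per library. Against that floor it was at least 7.55-fold to 14.7-fold higher in the liver stroma of each mouse and at least 2.17-fold to 7.90-fold higher in the peritoneal stroma, where it did not pass the filter on low counts.

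In the peritoneum the folds of Ccr1, Ccr2, Ccr3 and Cx3cr1 moved when mouse 1, whose tumour cell library held more of these 4 receptors, was left out. Ccr2 read 9.78 CPM there and 0.491 to 0.703 CPM in the other 3 peritoneal tumour cell libraries. Its log2 fold change was 8.02 ± 0.98 with all mice and 9.17 ± 0.15 without mouse 1. Ccr3 moved from 6.90 ± 0.92 to 9.85 ± 0.46, Cx3cr1 from 6.16 ± 0.57 to 6.94 ± 0.24 and Ccr1 from 6.00 ± 0.49 to 6.59 ± 0.22 when mouse 1 was left out. Ccr3 held 0, 1 and 0 counts in the peritoneal tumour cells of mice 2 to 4. The size of its fold without mouse 1 is therefore poorly set, whatever its SE. The peritoneal tumour cell library of mouse 1 read 123 CPM of macrophage markers against 20.6 to 26.8 CPM in the other 3. It read 54.65 CPM of neutrophil markers against 2.06 to 2.76 CPM, and 1193 CPM of fibroblast markers against 168 to 255 CPM.

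Tumour cell libraries held a small share of leukocyte signal. The pan-leukocyte list in tumour cells was 2.28% of its stromal level in the liver and 3.20% in the peritoneum. Ccr2 (0.197%), Ccr3 (0.377%) and Xcr1 (0.604%) lay below that share in the liver and Ccr7 (6.89%), Cxcr2 (6.92%) and Cxcr3 (10.6%) lay above it. Ccr7 read 1.80 to 3.12 CPM in liver tumour cells and 1.44 to 3.37 CPM in peritoneal tumour cells, against at most 0.119 CPM in any culture.

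Between tumour cells of the 2 sites, 0 of the 5 receptors tested were called by edgeR's quasi-likelihood test, where 0.78% of 13074 genes were called. The only unadjusted p under 0.05 in that fit was that of Cxcr2, whose adjusted p was 0.123. Cxcr2 read 12.7, 9.52, 7.21 and 8.05 CPM in the liver and 8.48, 6.39, 6.69 and 4.79 CPM in the peritoneum, higher in the liver in 4 of 4 mice. DESeq2 called Cxcr2 (log2 fold change 0.55 ± 0.19, adjusted p = 0.0480), as did the fit of all 16 sorted libraries (adjusted p = 0.0357). Without mouse 1, Ccr1 was called higher in liver tumour cells (1.22 ± 0.25, adjusted p = 0.0318).

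The site difference in stroma was set against that in tumour cells in a fit of all 16 sorted libraries. For 0 of the 9 receptors did the 2 differences differ at an adjusted p under 0.05 in edgeR, while 17.3% of 15331 genes were called. Cxcr6 gave no usable estimate in this contrast, being at 0 in tumour cells. Xcr1 came nearest, with a difference of 1.49 ± 0.68 on the log2 scale (adjusted p = 0.157 in the edgeR fit), the only receptor at an unadjusted p under 0.05. DESeq2 called Xcr1 in this contrast (adjusted p = 0.0460), on 0 to 13 counts per tumour cell library. For Ccr2 the difference was 1.81 ± 1.02 with all mice and -0.12 ± 0.24 without mouse 1.

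In culture Cxcr2 stood apart from the other receptors. It read 15.6, 23.0 and 16.9 CPM in BMEL WT, 13.1, 12.3 and 42.2 CPM in RasLOW and 6.82, 24.6 and 35.2 CPM in RasHIGH cells, on 172 to 983 counts. The 3 groups overlapped, and Cxcr2 made up 99.2% of the summed RPKM of the 9 receptors in BMEL WT. In tumour cells Cxcr2 stood at 9.37 ± 2.41 CPM in the liver and 6.59 ± 1.51 CPM in the peritoneum (SD, n = 4, no test run).

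Ccr1 in culture read 1.67, 1.70 and 1.01 CPM in RasHIGH cells, 0.816, 0.0735 and 0.129 CPM in RasLOW cells and 0, 0.0372 and 0 CPM in BMEL WT. All RasHIGH values lay above all RasLOW and BMEL WT values, and the BMEL WT libraries held 0 to 1 counts. No test was run on the cultures, and the share of all genes that separate in this way was not counted. In the sample descriptions BMEL WT replicates 1 and 2 carry lane number 3 and the other cultures lane number 4. Ccr3, Cxcr3 and Cxcr6 were at 0 counts in all 9 cultures, which at this depth allows up to 0.106 to 0.144 CPM. Cx3cr1 held 0 to 12 counts per culture, at most 0.476 CPM, and Ccr2, Ccr7 and Xcr1 held 0 to 4 counts.

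Some genes had profiles much like those of the receptors across the 8 stromal libraries. The likeness was measured by Pearson's r of log2(CPM + 1) among genes with a mean of at least 5 CPM, and the points share the site, which by itself raises r for any 2 genes that differ between the sites. For Xcr1 the 3 closest were Btla (0.986), Clec9a (0.982) and Serpinb6b (0.981), of which Clec9a is a receptor for dead cells on type 1 dendritic cells and was also among the markers listed above. For Cx3cr1 they were the ATP-gated channel P2rx7 (0.979), the macrophage gene Ms4a7 (0.952) and Birc5 (0.939). For Cxcr2 they were Trp53inp1 (0.992), Itih3 (0.983) and Slamf7 (0.977), and for Ccr7 Chd2 (0.990), Rab8b (0.982) and Ankrd33b (0.981).

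For Ccr1 the closest profiles were those of Slc35e3 (0.996), Patl1 (0.993) and Pkp2 (0.991), and for Ccr2 those of Ralgapa1 (0.980), Slx4ip (0.964) and Zfp710 (0.960). Cxcr3 was closest to Rgs14 (0.943), Pstpip1 (0.937) and Exd2 (0.937). Ccr3, whose profile is set by 1 library, was closest to Slc29a2 (0.946), Zfp729b (0.9296) and Exosc3 (0.926).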

How the data were processed

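Libraries were made from mRNA with the NuGEN Universal Plus kit and sequenced on an Illumina HiSeq. The authors mapped reads to mm9 with TopHat2, and the table they deposited gives unnormalised counts per gene in 25 libraries. The labels' processing notes also name Bowtie 0.12.2, FastQC and the builds mm8 and mm10. The counting program, its strand setting and the annotation are not given in the sources used here. Columns were matched to samples by the library identifier in the titles.

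The receptors and the gene lists were chosen with earlier results of these data known. 1 gene of the list of other chemokine receptors is not reported here. Differences were fitted with edgeR 4.0.16 (R 4.3.3), using filterByExpr (minimum count 10), TMM, quasi-likelihood F-test, mouse as a block, Benjamini-Hochberg adjustment over all genes tested, called under 0.05. The pairing rests on the labels, since both tumours of a number come from the same mouse. Deviations from the group means correlated within mice at -0.003, 0.136, 0.122 and 0.285 (mice 1 to 4). Each mouse is a separate animal and each culture is labelled as a replicate only. CPM are counts scaled to the library total without TMM, and RPKM use GENCODE vM1 exon lengths on mm9. SE is the absolute log2 fold change divided by the square root of F. Genes named are all 9 receptors, called genes of the lists and the 3 most alike genes (mean of at least 5 CPM) of each receptor with a mean of at least 1 CPM.

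On simulated counts with 200 of 14616 genes changed by a log2 fold change of 1, 170 were recovered and 15 unchanged genes called. The changed genes were drawn from the better expressed ones, balanced in direction, with no effect of mouse. In the stroma 38.1% of genes were called, so these rates need not hold there or for receptors with few counts. No 2 libraries had identical counts. Alternatives were DESeq2 1.42.0, RLE scaling, no filter, no block, all 16 sorted libraries in one fit, scaling to 10 leukocyte genes, the study's thresholds (absolute log2 fold change above 1 with unadjusted p under 0.05) and leaving out each mouse.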

Additional observations from a re-analysis of the deposited data

Results flagged for a closer look

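Among 34 groups of 4 libraries tested for a value far from the others by Dixon's 95% critical ratio, 7 values stood out, where chance flags about 1 in 20 groups, or 1.7 here. In the peritoneal tumour cells of mouse 1 these were Ccr1 (8.54 CPM against 1.81 to 2.83 CPM in the other 3 libraries), Ccr2 (9.78 against 0.491 to 0.703 CPM), Ccr3 (0.510 against 0 to 0.0195 CPM) and Cx3cr1 (5.10 against 0.781 to 1.07 CPM). In the liver tumour cells of the same mouse Ccr2 was the lowest, at 0.552 CPM against 0.869 to 0.929 CPM. Ccr3 in the liver stroma of mouse 1 was 61.1 CPM against 10.1 to 16.4 CPM, and Cxcr3 in the peritoneal stroma of mouse 4 was 0.491 CPM against 1.92 to 1.96 CPM. Outside the stromal comparison, receptor counts were also present in cultured cells: the mean of Ccr1 in RasHIGH cells was 1.46 CPM and that of Cxcr2 in BMEL WT cells 18.5 CPM, each above the level that 3 counts allow. What lies behind these values was not tested.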

How the results depend on the processing

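Of the 9 receptors in the stroma comparison, 5 were called in the main analysis, 5 with DESeq2, RLE scaling, no filter or no replicate block, and 5 to 6 when a mouse was left out (6 without mouse 1, which adds Cxcr6). The block by mouse changed no receptor's call. The count was 3 with all 16 sorted libraries in one fit, 3 after scaling to leukocyte genes and 0 under the study's thresholds, since no receptor that was called had an absolute log2 fold change above 1. Over all genes, 5615 calls became 4926 without the block, 10078 after leukocyte scaling and 2115 under the study's thresholds (27.1% of them higher in the liver), and 3775 to 5368 when a mouse was left out. All 16 libraries in one fit put 57.1% of calls higher in the liver against 47.5% in the main analysis. Signs reversed only after leukocyte scaling among the alternatives run, for Ccr1 (-0.12), Ccr2 (-0.28), Cxcr3 (-0.00787), Rgs2 (-0.0778), Dock2 (-0.0623), Pik3r5 (-0.13), Arrb2 (-0.16), Pik3cg (-0.0596), Elmo1 (-0.25), Grk6 (-0.28), Gng2 (-0.19) and Rac2 (-0.00125), which follows from setting the 10 leukocyte genes level. In tumour cells 0 receptors were called, 1 with DESeq2, 1 with all 16 libraries in one fit and 0 to 1 when a mouse was left out. In the comparison of the 2 site differences 0 were called, 1 with DESeq2 and 1 under the study's thresholds (Xcr1 in each case). The cause of these changes was not tested. All 9 receptors in the liver and 8 to 9 in the peritoneum were called higher in stroma than in tumour cells under every alternative. The libraries of mouse 2 carry different lane numbers in the sample descriptions for the 2 sites and those of the other mice the same number, and the 5 calls held without mouse 2. Of the 33 other called genes, the leave-one-out fits lost the calls of Rgs1, Rgs2, Elmo1, Grk6 and Gng2, beside those named in the text. Depth limits Cxcr6, at 7 to 39 counts per stromal library, and Cxcr3, at 14 to 96.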
